A study of Mus musculus with 4 samples.

Results

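The genes described here are 42 factors that carry out and regulate protein synthesis in the cytoplasm, from start codon selection to chain release, together with poly(A)-binding protein and Tpt1. They were picked by gene symbol from the 53465 genes of the deposited count table. All 42 were found there, and all 42 were among the 14682 genes that passed the filter on low counts.

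The RNA came from myeloid-derived suppressor cells (MDSCs), a mixed population of immature myeloid cells that expands with a tumor and restrains T cells. They were taken from the spleens of BALB/c mice injected with 4T1 cells, a mouse mammary carcinoma line, and purified on magnetic beads. The sorted cells were cultured for 6 h either in control medium (2 libraries) or with 5 μg/mL of epigallocatechin-3-gallate (EGCG), a green tea polyphenol (2 libraries). The labels put sorting at day 21 after tumor injection, the methods at an earlier day, and the methods describe 6-week-old male mice. Every group therefore carried the tumor and the same culture time, and no cells without culture or from tumor-free mice were part of the comparison. The question put to the data was whether 6 h of EGCG was accompanied by a change in the messages of the translation machinery in these cells. At this dose and time the paper reported lower viability and more apoptosis of sorted MDSCs. The part of dying cells in the results below was not tested. Nothing stated whether the replicates came from separate mice, so p-values measured only the spread between these libraries. With 2 libraries against 2, an exact two-sided permutation test of a single value could not give a p below 0.333.

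Protein synthesis starts when the small ribosomal subunit, carrying the initiator tRNA on eIF2 and held by the large scaffold eIF3, is brought to the capped end of a message by the eIF4 factors. It then scans to a start codon, the large subunit joins, and the elongation factors eEF1 and eEF2 drive the growth of the chain. Many messages of the elongation factors, and a few of the initiation factors, begin with a terminal oligopyrimidine (TOP) tract, a cap-proximal run of pyrimidines through which growth signals set their translation. Stress kinases restrain initiation by phosphorylating eIF2, which then blocks its exchange factor eIF2B.

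The libraries held between 17767318 and 18390385 counts. The neutrophil and granulocytic MDSC markers dominated the marker lists, with a summed level of 61386 and 72788 counts per 1000000 scaled counts (CPM) in control 1 and 2 and 81834 and 72809 CPM in EGCG 1 and 2, 9 of the 11 genes being higher with EGCG. All 6 macrophage markers were lower with EGCG, their summed level being 360 and 365 CPM against 288 and 302 CPM, and so were all 4 platelet markers (36.3 and 39.3 CPM against 32.4 and 32.0 CPM) and all 4 endothelial markers (117 and 129 CPM against 96.6 and 101 CPM). The summed monocyte markers were at 1496 and 1275 CPM against 1140 and 1184 CPM (5 of 6 lower) and the basophil and eosinophil markers at 1102 and 975 CPM against 946 and 813 CPM (3 of 4 lower). The epithelial markers, which the 4T1 cells would carry, were at 4.66 and 3.86 CPM against 6.51 and 6.61 CPM, with Krt8 at 0 to 2 counts. The T and NK cell markers were at 86.2 and 97.2 CPM against 97.9 and 101 CPM, with 2 of the 4 tested higher and 2 lower. Most of that sum was Cd3d, at 75.2 and 86.0 CPM against 87.7 and 90.2 CPM. The dendritic, B and erythroid cell lists overlapped between groups. No gene of any of the 11 marker lists passed the test, no listed marker was at 0 in all 4 libraries, and the part of these differences in the results below was not tested. In bulk RNA, fewer cells of a type and less RNA per cell cannot be told apart. The Y-linked genes Eif2s3y (a subunit of eIF2), Ddx3y, Kdm5d and Uty had 0 counts in all 4 libraries, which allows up to 3 counts or about 0.17 CPM in each, whereas Xist, the RNA of the silenced X chromosome, had 3093 to 5671 counts. This goes against the male mice of the methods.

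Several of these factors have processed pseudogenes, copies of their spliced message elsewhere in the genome, to which reads had been counted as separate genes. The coding sequence of Tpt1 (GRCm38, chr14:75845093-75848525, plus strand) was identical over all 516 bases to Tpt1-ps3 (chr6:99877816-99878334, minus strand). That of the helicase Eif4a1 (chr11:69666936-69672423, minus strand) differed from Eif4a-ps4 (chr1:60703932-60705149, plus strand) at 1 of 1218 bases. Eef1g (chr19:8967041-8978479, plus strand) and Gm4366 differed at 5 of 1311 bases, and Eif3m (chr2:104999656-105017080, minus strand) and Gm7658 at 16 of 1121 aligned bases. The following 90-base coding stretches, from the GENCODE M21 transcripts and written 5′ to 3′, are shown because they let a reader see how little separates a gene's reads from its copy's. Capitals mark the bases at which a gene and its copy differ.
Tpt1 (exon 3, chr14:75846203-75846292, plus strand): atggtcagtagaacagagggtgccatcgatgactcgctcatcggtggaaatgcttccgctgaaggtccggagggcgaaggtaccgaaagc
Tpt1-ps3 (chr6:99878143-99878232, minus strand): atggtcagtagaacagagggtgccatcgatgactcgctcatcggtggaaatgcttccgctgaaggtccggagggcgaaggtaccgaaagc
Eif4a1 (exon 6, chr11:69668662-69668751, minus strand): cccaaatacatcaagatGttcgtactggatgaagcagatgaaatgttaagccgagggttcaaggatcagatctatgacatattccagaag
Eif4a-ps4 (chr1:60704448-60704537, plus strand): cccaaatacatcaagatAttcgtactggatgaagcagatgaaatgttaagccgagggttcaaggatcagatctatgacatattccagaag
Eef1g (exon 7, chr19:8972921-8973010, plus strand): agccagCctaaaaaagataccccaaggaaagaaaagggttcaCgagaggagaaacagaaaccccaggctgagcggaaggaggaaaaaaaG
Gm4366 (chr7:116825065-116825154, minus strand): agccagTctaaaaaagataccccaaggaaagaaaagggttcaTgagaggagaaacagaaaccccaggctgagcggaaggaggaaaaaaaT
Eif3m (exon 5, chr2:105012856-105012945, minus strand): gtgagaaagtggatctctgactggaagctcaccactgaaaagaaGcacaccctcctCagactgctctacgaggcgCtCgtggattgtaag
Gm7658 (chr1:21512530-21512619, minus strand): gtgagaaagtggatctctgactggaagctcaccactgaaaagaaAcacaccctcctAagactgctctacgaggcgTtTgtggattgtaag

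Over the 4 libraries, 15 of the 42 genes had at least 1 copy with counts (40 copies in all), and for 3 of them the copies held more counts than the gene. Tpt1 had 13326 counts against 74797 in its 3 copies, so that 84.9% of the sum lay in the copies. Eif4a1 had 4885 against 16949 (77.6% in the copies) and Eef1g 3059 against 6425 (67.7%). The share was 36.6% for Eif2s2, 33.3% for Eif3m and 16.3% for Eif1, and below 10% for the other 9. Where the sequences are identical, reads of the gene and of the copy cannot be told apart, and the levels given below for these genes are therefore those of the counts assigned to the gene itself unless stated. Fold changes with the copies added were computed after the data had been seen.

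**Figure D1:**
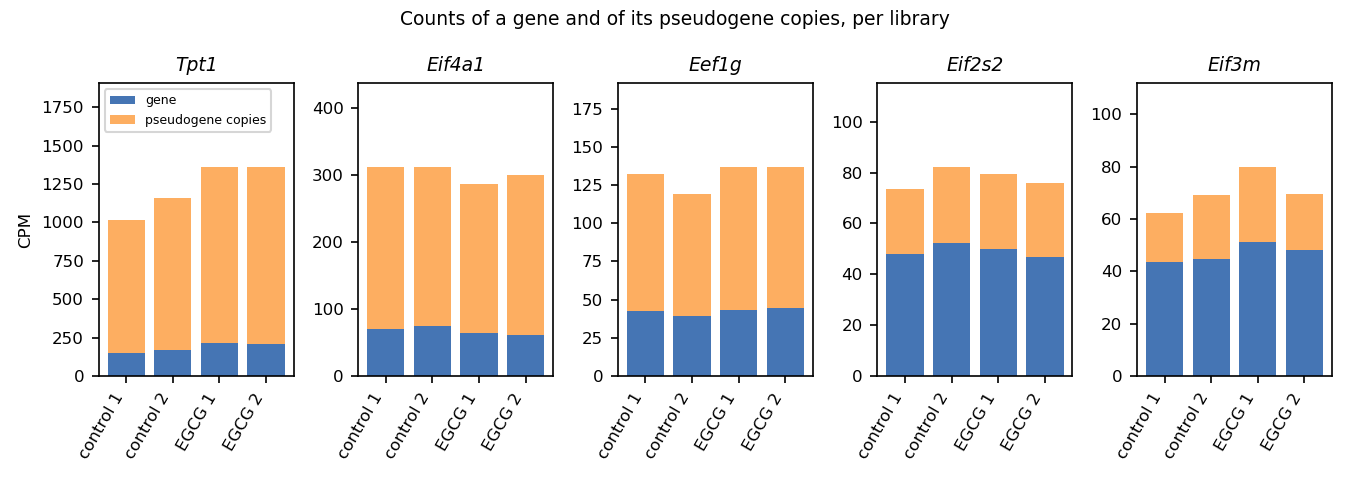
Level in CPM assigned to the gene itself and to its pseudogene copies in the 4 libraries, for the genes with the largest share in copies. For Tpt1, Eif4a1 and Eef1g the copies hold more than the gene in every library.

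None of the translation factor messages passed the adjusted test after 6 h of EGCG, and those with the smallest p were mostly higher with EGCG. In edgeR's quasi-likelihood test, 0 of the 42 passed the adjusted threshold of 0.05, against 0.15% of all genes tested (0.0136% higher and 0.136% lower with EGCG, 22 genes in all). DESeq2, which gave an adjusted p to 39 of the 42, called 1 of them, Tpt1, against 1.06% of the 6427 genes it adjusted (68 genes). At an unadjusted p under 0.05 there were 10 (23.8%, against 12.2% of all genes): Eif1, Eif3e, Eif3f, Eif3h, Eif3k, Eef1b2 and Tpt1 were higher with EGCG (7, against 5.22% of all genes) and Eif3a, Eif4a1 and Eif4g1 lower (3, against 7.02%). That count was 6 without control 1 (14.3%, against 6.52% of all genes in that fit) and 4 without EGCG 2 (9.52%, against 10.4%), so that without EGCG 2 the share was no higher than over all genes. The log2 fold changes (EGCG over control) ran from -0.25 for Eif3a to 0.40 for Tpt1, with standard errors (SE) of 0.07 to 0.22. They were above 0 for 29 of the 42 (69.0%, against 50.6% of all genes), with a median of 0.04 against 0.0031 over all genes. The median of the 42 was 0.075 without EGCG 1 and 0.025 without EGCG 2.

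The median absolute log2 difference between the group means was 0.08 over the 42 genes and 0.12 over all genes tested. Single replicates differed by a median of 0.08 (control) and 0.07 (EGCG) over the 42 genes and by 0.13 in each group over all genes, where a difference between 2 single libraries varies more than a difference between means. Both EGCG libraries lay above both control libraries for 16 genes (against 21.5% of all genes tested) and below them for 5 (against 21.2%), in all 21 of the 42 against 42.7%.

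**Figure D2:**
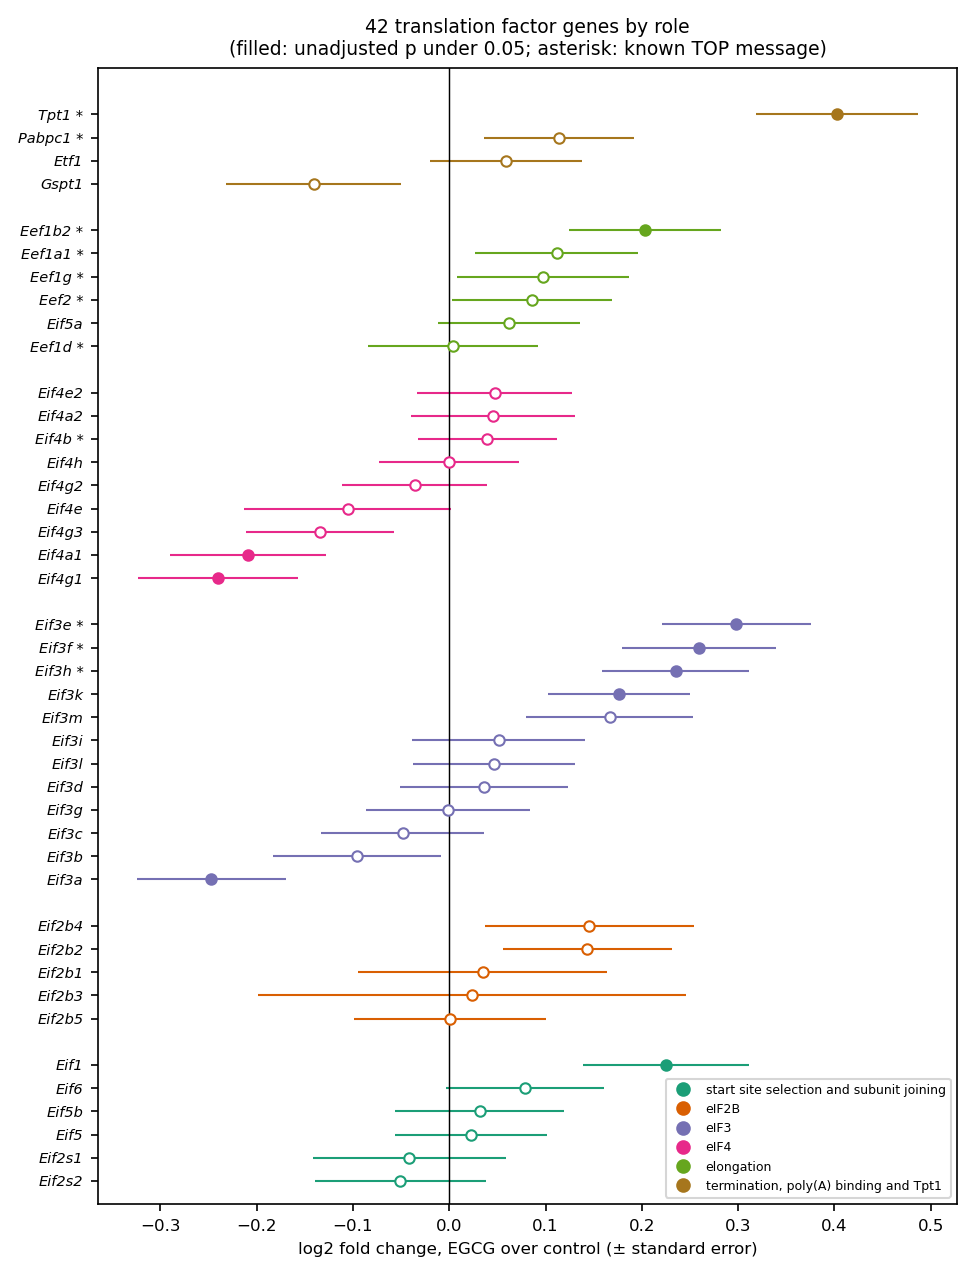
Log2 fold change of each of the 42 genes, EGCG over control, with its standard error, ordered by role. Values run from -0.25 (Eif3a) to 0.40 (Tpt1), and no gene passed the adjusted threshold.

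Among the factors of start site selection and subunit joining, 4 of 6 were higher and 2 lower (median log2 fold change 0.03, and -0.0092 without EGCG 2). The median was also lower without control 1, and it was higher without EGCG 1 or control 2. Eif1, which guards the fidelity of start codon choice, had the highest level per kilobase of exon in this group, 135 CPM per kb. Its level was 245 and 280 CPM in control 1 and 2 and 289 and 323 CPM in EGCG 1 and 2. The EGCG libraries both lay above the controls, and the gap between the groups was smaller than the difference within either of them. The log2 fold change was 0.22 (SE 0.09, edgeR adjusted p = 0.322), and 0.14 without control 1 or without EGCG 2. Eif5, which triggers GTP hydrolysis on eIF2 at the start codon, was the most abundant of the group by CPM, with overlapping libraries between 443 and 496 CPM. The eIF2 subunits Eif2s1, the target of the stress kinases, and Eif2s2, which binds the exchange factor, had log2 fold changes of -0.04 and -0.05 and overlapping groups. With its copy added, Eif2s2 was at -0.0024. Eif5b, the GTPase that joins the subunits, and Eif6, which keeps the large subunit free until then, overlapped between groups, with levels of 69.4 to 80.7 CPM and 90.1 to 102 CPM. Of the exonic bases of Eif5b, 16.9% are overlapped by Rev1 on the opposite strand, from which unstranded counts cannot be told apart.

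The 5 subunits of eIF2B, the nucleotide exchange factor that recharges eIF2, had the lowest summed level of the role groups (102 to 110 CPM per library), with single genes from 0.723 CPM per kb for Eif2b3, the lowest of the 42, to 23.5 CPM per kb for Eif2b2. Eif2b2, with the smallest p of the group, had 41.0 and 43.2 CPM in the control libraries and 45.9 and 47.1 CPM with EGCG. These values did not overlap, and the log2 fold change was 0.14 (SE 0.09, edgeR adjusted p = 0.553). Eif2b4 was also higher in both EGCG libraries, with 20.6 and 20.3 CPM against 19.1 and 17.9 CPM (log2 fold change 0.15, SE 0.11). The catalytic subunit Eif2b5 was level, with 24.9 and 25.5 CPM in both pairs. Eif2b1 and Eif2b3 overlapped between groups, and Eif2b3, at 3.92 to 5.60 CPM, had the largest SE of all 42 genes (0.22). All 5 fitted log2 fold changes were above 0 (median 0.03), but scaling by library size alone turned Eif2b1, Eif2b3 and Eif2b5 below 0. So did leaving out control 1 for Eif2b1, EGCG 2 or control 2 for Eif2b3 and EGCG 1 or control 1 for Eif2b5. The median was 0.14 without EGCG 1, 0.11 without control 1 and 0.079 without control 2.

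The subunits of eIF3, the scaffold that holds the initiation complex together, had the widest range of fold changes of the role groups of initiation factors among the 42. Of the 12 subunits, 8 were higher with EGCG and 4 lower (median 0.05), and 5 of the 12 had an unadjusted p under 0.05, against 12.2% of all genes. The median was lower with scaling by library size alone and higher without control 2. Fewer of the 12 lay under that threshold without EGCG 2. Eif3e had 77.8 and 83.7 CPM in the control libraries and 98.0 and 101 CPM in the EGCG libraries. The groups were well apart, with a log2 fold change of 0.30 (SE 0.08, edgeR adjusted p = 0.147). Eif3f had 153 and 152 CPM in control and 171 and 195 CPM with EGCG, a log2 fold change of 0.26 (SE 0.08, edgeR adjusted p = 0.228). Its EGCG libraries differed more from each other than its controls did. The log2 fold change of Eif3f was 0.16 without EGCG 2 and 0.35 without EGCG 1. Eif3h, the subunit with the highest level per kilobase (97.7 CPM per kb), had 141 and 149 CPM in control and 164 and 177 CPM with EGCG (log2 fold change 0.24, SE 0.08, edgeR adjusted p = 0.235). The messages of Eif3e, Eif3f and Eif3h are all of the TOP class. Eif3k had 104 and 109 CPM in control and 120 CPM in each EGCG library, a log2 fold change of 0.18 (SE 0.07, edgeR adjusted p = 0.364).

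Eif3a, the largest subunit and the spine of the complex, went the other way. It had 237 and 224 CPM in the control libraries and 186 and 203 CPM with EGCG, so that both treated libraries lay below both controls. Its log2 fold change was -0.25 (SE 0.08, edgeR adjusted p = 0.228). The subunits Eif3b and Eif3c, which bind Eif3a, overlapped between groups, with log2 fold changes of -0.10 (but 0.029 without control 1) and -0.05 (but 0.063 without EGCG 1). Eif3g and Eif3i were at -0.0011 and 0.05. In a split made after the values had been seen, the subunits a, b, c, g and i were higher in 1 of 5 (median -0.05). Without EGCG 1 they were higher in 3 of 5 with a median of 0.021, and without EGCG 2 their median was -0.14. The subunits d, e, f, h, k, l and m were higher in 7 of 7 (median 0.18, and 6 of 7 without EGCG 2). For these 7, both EGCG libraries lay above both controls in 6 of the 7, against 21.5% of all genes. The choice of the split after seeing the values makes this a description only. Eif3m had 43.6 and 44.8 CPM against 51.2 and 48.0 CPM (log2 fold change 0.17, SE 0.09), and 0.19 with its copy added. Eif3d (0.04), 43.3% of whose exonic bases are overlapped by an antisense gene, and Eif3l (0.05) were level within their SE of 0.09 and 0.08. No test of a difference between the subsets was made.

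**Figure D3:**
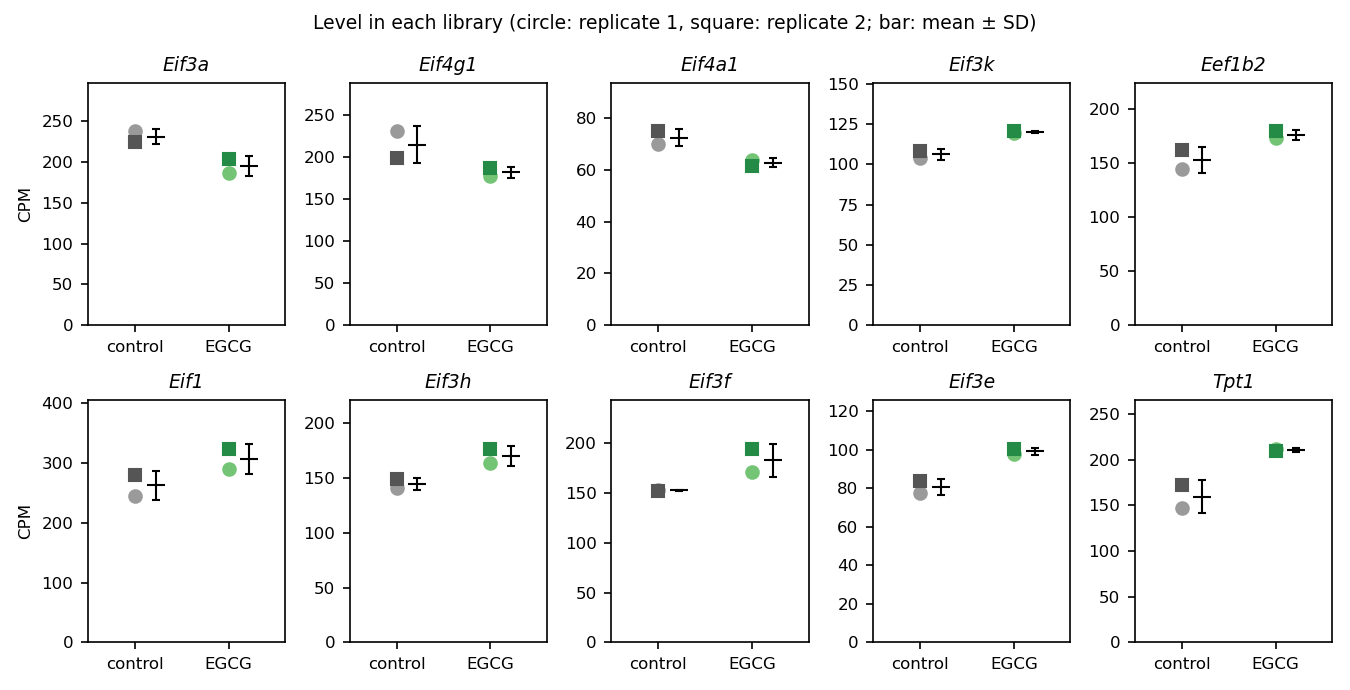
Level in each of the 4 libraries (CPM) of the 10 genes with an unadjusted p under 0.05. In 7 of them both EGCG libraries lie above both control libraries, in Eif3a, Eif4a1 and Eif4g1 below.

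In the main fit, the eIF4 factors, which recognize the cap and unwind the leader, were the only group in which most members were lower, 6 of 9. Their median was -0.04, but 0.02 with the correction for exonic length and 0.0079 without control 2. Scaling by library size alone also put most eIF2B genes below 0. Eif4g1, the scaffold that bridges cap-binding protein and ribosome, had 230 and 199 CPM in the control libraries and 177 and 186 CPM with EGCG. The control libraries differed from each other by more than the nearer of them did from EGCG 2. The log2 fold change was -0.24 (SE 0.08, edgeR adjusted p = 0.274), and -0.13 without control 1. Eif4a1, the main helicase, had 70.3 and 75.0 CPM in control and 64.0 and 61.6 CPM with EGCG (log2 fold change -0.21, SE 0.08, edgeR adjusted p = 0.325). With its copies added the levels were 312 and 313 CPM against 286 and 300 CPM, and the log2 fold change was -0.09 (SE 0.07, edgeR adjusted p = 0.664). Over the alternatives that kept all 4 libraries, the adjusted p of Eif4a1 ran from 0.198 to 0.727. With the copies, Eif4a1 was no longer under the unadjusted threshold, and its level went from 15.6 to 69.9 CPM per kb, from below to above the 43.9 CPM per kb of its paralog Eif4a2.

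The other eIF4 factors had unadjusted p above 0.1. Eif4b, which stimulates the helicase and had the highest level per kilobase of the group (75.7 CPM per kb), had 334 and 333 CPM in control and 341 and 345 CPM with EGCG. These values did not overlap, but the log2 fold change was 0.04 (SE 0.07, edgeR adjusted p = 0.875). The cap-binding protein Eif4e, at 30.7 to 37.4 CPM, overlapped between groups (log2 fold change -0.11, SE 0.11), as did its repressive relative Eif4e2 (0.05, SE 0.08). With a library left out, Eif4e ran from -0.24 to 0.048 and Eif4e2 from 0.0079 to 0.094. Eif4g3, the paralog of Eif4g1, had 244 and 220 CPM in control and 214 and 209 CPM with EGCG (log2 fold change -0.13, SE 0.08, and -0.054 without control 1, -0.20 without control 2 or -0.027 with the length correction). Eif4g2, a relative that lacks the cap-binding partner site and acts in cap-independent initiation, was at -0.04 (SE 0.08), and at 0.06 with the length correction. The helicase Eif4a2 had 216 to 251 CPM in all libraries (log2 fold change 0.05, SE 0.09), 15.2% of its exonic bases being shared with small RNA genes and Rfc4. Eif4h, a second stimulator of the helicase, was level at 308 to 322 CPM.

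The 6 elongation factors had the highest summed level of the role groups and made up 46.6% of the summed CPM of the 42 genes. Most of this share came from Eef1a1 (25.0%) and Eef2 (14.9%), whereas Eef1d ranked 39 among the 42 by level per kilobase. All 6 had fitted log2 fold changes above 0 (median 0.09, but 0.036 without EGCG 2 and 0.048 without control 2), and in 4 of the 6 both EGCG libraries lay above both controls, against 21.5% of all genes. Eef1a1, which delivers aminoacyl-tRNA to the ribosome, had the highest level of all 42 genes, 1027 CPM per kb, and alone made up 25.0% of their sum. It had 2451 and 2473 CPM in the control libraries and 2512 and 2808 CPM with EGCG. EGCG 2 stood apart from the other 3 libraries, and the log2 fold change was 0.11 (SE 0.08, edgeR adjusted p = 0.643). It was 0.031 without EGCG 2 and 0.19 without EGCG 1. Eef1b2, the exchange factor subunit that recharges eEF1A, had 144 and 162 CPM in control and 173 and 180 CPM with EGCG (log2 fold change 0.20, SE 0.08, edgeR adjusted p = 0.325). The log2 fold change of Eef1b2 was 0.13 without control 1 and 0.29 without control 2. Its partner subunits Eef1g and Eef1d had log2 fold changes of 0.10 (SE 0.09, 0.12 with copies added, 0.16 without control 1 and 0.047 without control 2) and 0.0043 (SE 0.09). Eef2, the translocase, overlapped between groups, with 1526 and 1442 CPM against 1493 and 1658 CPM, and EGCG 2 was again the highest library. Eif5a, which carries the hypusine modification and helps the ribosome through difficult peptide bonds, had 423 and 408 CPM in control and 427 and 441 CPM with EGCG (log2 fold change 0.06, SE 0.07).

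Of the last 4 genes, Tpt1 had the smallest p and the largest fold change of all 42. Tpt1 codes for translationally controlled tumor protein, a growth-associated protein that takes its name from the translational control of its TOP message. It had 146 and 172 CPM in control 1 and 2 and 212 and 209 CPM in EGCG 1 and 2. The EGCG libraries lay closer to each other than to either control, and the log2 fold change was 0.40 (SE 0.08, edgeR adjusted p = 0.0754). Over the alternatives that kept all 4 libraries, its adjusted p ran from 0.0145 to 0.593. It was under 0.05 with DESeq2 (0.0145) and with scaling by library size alone in edgeR (0.0250). Its log2 fold change was 0.30 without control 1 and 0.53 without control 2. The counts of Tpt1-ps3, identical in coding sequence, differed in the same direction, with 857 and 973 CPM in control and 1129 and 1139 CPM with EGCG (log2 fold change 0.31, SE 0.08, edgeR adjusted p = 0.162). Gene and copies together had 1014 and 1156 CPM in control and 1358 and 1362 CPM with EGCG (log2 fold change 0.33, SE 0.08, edgeR adjusted p = 0.139). On that count Tpt1 would have 514 CPM per kb in place of 77.7 CPM per kb, second to Eef1a1 in place of rank 7 among the 42.

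Pabpc1, the poly(A)-binding protein that closes the message into a loop with Eif4g1, had 602 CPM in each control library and 621 and 682 CPM with EGCG (log2 fold change 0.11, SE 0.08, edgeR adjusted p = 0.601). It was 0.045 without EGCG 2 and 0.18 without EGCG 1. Etf1, which recognizes stop codons, overlapped between groups at 143 to 162 CPM, and its partner GTPase Gspt1 had 58.0 and 52.55 CPM in control and 52.50 and 47.8 CPM with EGCG (log2 fold change -0.14, SE 0.09). The groups of Gspt1 did not overlap, but their nearest libraries were almost equal. With a library left out, its log2 fold change ran from -0.21 to -0.063.

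**Figure D4:**
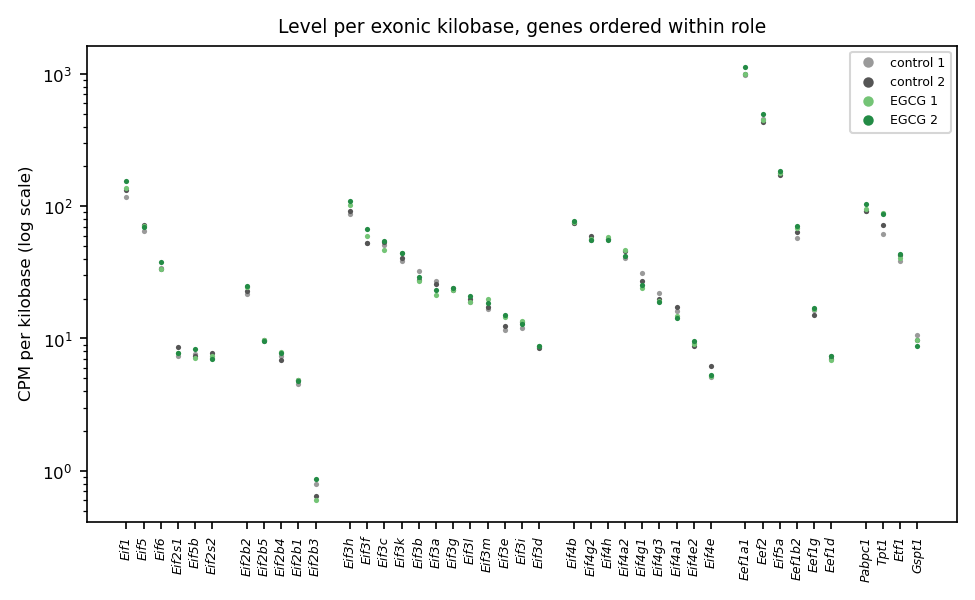
Level per kilobase of exon (CPM per kb, log axis) of the 42 genes in each library, ordered by level within each role. On the counts assigned to the genes themselves, Eef1a1 and Eef2 lead at means of 1027 and 460 CPM per kb and Eif2b3 is lowest at 0.723 CPM per kb. With its copies added, which the figure does not show, Tpt1 would have 514 CPM per kb. The spread between libraries is small beside the spread between genes.

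By message class, the 11 genes whose messages are known to carry a TOP tract (Eef1a1, Eef1b2, Eef1d, Eef1g, Eef2, Eif3e, Eif3f, Eif3h, Eif4b, Pabpc1 and Tpt1) were all higher with EGCG in the fit, with a median log2 fold change of 0.11. Only Eef1d turned below 0 in any alternative, with library size scaling, with a filter of 50 counts and without EGCG 2 or control 2. Of the 11, 9 had both EGCG libraries above both controls (81.8%, against 21.5% of all genes) and 5 had an unadjusted p under 0.05 (45.5%, against 5.22% of all genes in the higher direction). The latter number was lower without EGCG 2. Of the other 31 genes, 18 were higher and 13 lower, with a median of 0.02 that turned to -0.0039 without EGCG 2, -0.0023 without control 1 and -0.011 with library size scaling. Without pseudogene copies, the summed level of the 11 was 5666 and 5653 CPM in the control libraries and 5873 and 6446 CPM with EGCG, a ratio of 1.09. Most of that excess lay in EGCG 2, and the median of the 11 was 0.09 without EGCG 2 and 0.19 without EGCG 1. The sum of the other 31 was 4285 and 4384 CPM against 4281 and 4361 CPM, a ratio of 0.997. The difference between the classes was not tested, and the TOP genes were also shorter, with a median exonic length of 2891 bases against 4334 bases.

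Length went with the fold change in this series. Across the 42 genes, Spearman's rho between log2 fold change and exonic length was -0.569, against -0.286 across 14666 tested genes with a length. These are descriptions across genes of the same 4 libraries, and genes are not replicates. With a correction for length as an offset, rho was -0.276 across the 42 and -0.0252 across all genes. The TOP genes had a mean log2 fold change of 0.16 with the correction and 0.17 without it, 7 of the 11 being lower and 4 higher with it, while their median went from 0.11 to 0.16, the value of Pabpc1. The median of the eIF4 factors was 0.02 in place of -0.04. The 3 genes with the lowest log2 fold changes, Eif3a, Eif4g1 and Eif4a1 (-0.09 with its copies added), have exonic lengths of 8731, 7301 and 4334 bases. Tpt1, Eif3f, Eif3h and Eif1, all higher with EGCG, lie between 1612 and 2891 bases. The longest of the 42, Eif4g3, Eif4g2 and Eif5b, at 11063, 10166 and 9753 bases, were at -0.13, -0.04 and 0.03. Eif3e, at 6719 bases, was an exception, with the second highest fold change of the 42.

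**Figure D5:**
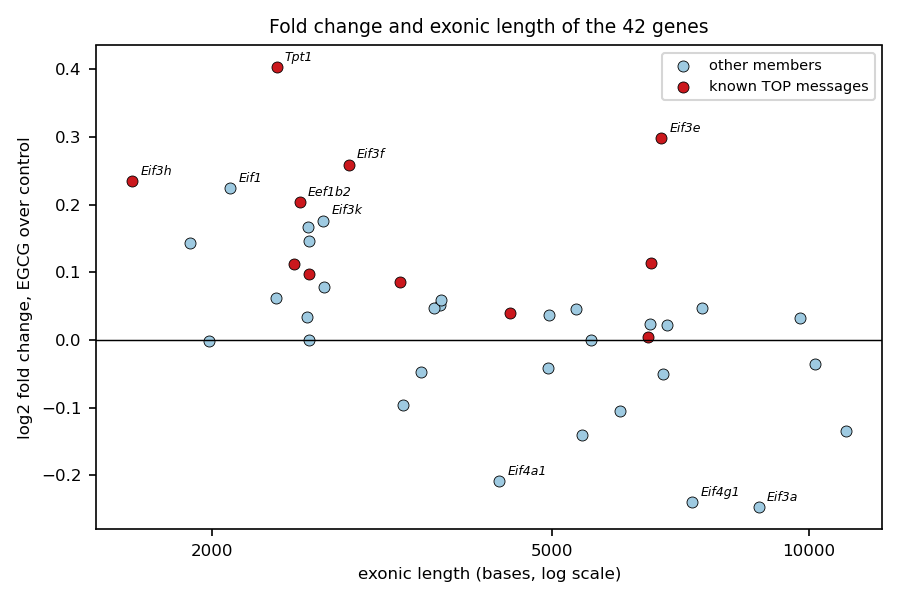
Log2 fold change (EGCG over control) of the 42 genes against exonic length in bases (log axis), with the 11 known TOP messages in red. Longer messages tend to lie lower, and Eif3e at 6719 bases lies apart at 0.30.

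Summed over all 42 genes, the level was 9950 and 10037 CPM in the control libraries and 10154 and 10807 CPM with EGCG. The means were 9994 ± 61.3 and 10480 ± 462 CPM (SD, n = 2 each), a ratio of 1.05, and EGCG 2 held most of the difference. As a share of all counts the 42 genes took 1.02% and 0.998% in control and 1.00% and 1.07% with EGCG, so that the EGCG 1 library lay between the controls. With Eef1a1, Eef2 and Tpt1 left out, the ratio of the sums was 1.02. These sums leave out the pseudogene copies. With the copies added, the 42 genes had 11504 and 11708 CPM in control and 11994 and 12686 CPM with EGCG, a ratio of 1.06.

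The wider translation machinery was followed with 58 further genes, of which 56 were tested. In edgeR's test 0 of the 56 passed the adjusted threshold, and DESeq2 called 0 of the 30 to which it gave an adjusted p. At an unadjusted p under 0.05 there were 8 (14.3%, against 12.2% of all genes), and the median log2 fold change was 0.02, with 34 higher and 22 lower. Of the regulators of the eIF4 factors, Eif4ebp1, which sequesters Eif4e when mTOR is inactive, had 117 and 124 CPM in control and 137 and 149 CPM with EGCG (log2 fold change 0.24, SE 0.08, edgeR adjusted p = 0.232). Its relative Eif4ebp3 was low, with 38 and 24 counts in control and 16 and 18 counts with EGCG (log2 fold change -0.85, SE 0.37, edgeR adjusted p = 0.376, and -0.50 without control 1), and 67.3% of its exonic bases are shared with another coding gene on the same strand. Larp1, which binds TOP messages and represses them, had 106 and 89.1 CPM in control and 81.8 and 87.5 CPM with EGCG (log2 fold change -0.21, SE 0.09, edgeR adjusted p = 0.382). Control 1 stood above the other 3 libraries, and without it the log2 fold change was -0.07. Without control 2 the log2 fold change of Larp1 was -0.33.

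None of the 4 stress kinases that act on eIF2 passed the test. Eif2ak2, or PKR, the kinase that senses double-stranded RNA, had 24.5 and 28.7 CPM in control and 20.2 and 20.5 CPM with EGCG (log2 fold change -0.38, SE 0.11, edgeR adjusted p = 0.199). Eif2ak4, or GCN2, the kinase that senses amino acid lack, had 11.0 and 10.6 CPM against 8.33 and 8.45 CPM (log2 fold change -0.36, SE 0.14, edgeR adjusted p = 0.339). Both were lower in each EGCG library than in each control. The heme-regulated kinase Eif2ak1 (log2 fold change 0.08, SE 0.08, but -0.012 without EGCG 2) and the kinase of the endoplasmic reticulum, Eif2ak3 (0.02, SE 0.07), overlapped between groups. Of the 6 eIF2 kinases and phosphatase subunits, 3 were higher and 3 lower in the fit, and 2 higher and 4 lower without EGCG 2 or without control 1. Among the other initiation factors, Eif4e3, a cap-binding relative of Eif4e, had 20.1 and 18.6 CPM in control and 24.5 and 26.7 CPM with EGCG (log2 fold change 0.40, SE 0.11, edgeR adjusted p = 0.160). Eif1b, the paralog of Eif1, had 23.5 and 29.0 CPM against 31.6 and 31.4 CPM (log2 fold change 0.26, SE 0.11, edgeR adjusted p = 0.370), and 0.12 without control 1 or 0.42 without control 2. Of the exonic bases of Eif4e3 and Eif1b, 14.8% and 12.7% are overlapped by another gene. Paip2, which displaces Pabpc1 from the poly(A) tail and lowers translation, had 158 and 175 CPM in control and 204 and 200 CPM with EGCG (log2 fold change 0.28, SE 0.08, edgeR adjusted p = 0.171). In edgeR, its adjusted p was 0.0331 without control 2, and over the alternatives that kept all 4 libraries (DESeq2 included) it ran from 0.127 to 0.659. The mitochondrial elongation factor Tsfm, whose log2 fold change was the second highest of the 56 after that of Eif4e3, had 60 to 82 counts (0.30, SE 0.22, edgeR adjusted p = 0.625, and 0.18 without EGCG 2).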

How the data were processed

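RNA from spleen-sorted MDSCs of 4T1-bearing mice was sequenced in 2 control and 2 EGCG libraries, grouped by their labels. The authors aligned reads to GRCm38 with STAR 2.6.0c and deposited whole-number counts per gene (featureCounts 1.6.2, Ensembl annotation, no strand, not normalized). The submitters' notes also name bcl2fastq 1.8.4 and FastQC. How reads fitting several places were counted is not given in the sources used here.

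Genes were filtered with filterByExpr (minimum count 10), scaled by TMM and compared in edgeR 4.0.16 (R 4.3.3, quasi-likelihood test, legacy form, no block), with Benjamini-Hochberg adjustment over 14682 genes and a threshold of 0.05. SE is the log2 fold change divided by the root of F. CPM are counts per 1000000 TMM-scaled counts. Exonic length is the union of GENCODE M21 exons (16 tested genes had none). Copies were pseudogenes sharing at least 5% of a gene's 31-base words. The test was checked on simulated data, where it recovered 64.8% of genes changed 1.5-fold, 80.5% changed 2-fold and 96.5% changed 4-fold in the comparison of EGCG with control. False calls numbered 9, 16 and 7, in the same order.

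The genes and lists were chosen with earlier results of these data known. Full values were given for the genes past the adjusted or, failing that, the unadjusted threshold of 0.05, and for the smallest p and the highest level per length in each role. Of the other translation genes, those past either threshold were named, and the 2 largest changes in each direction with at least 10 counts in every library. Alternatives were scaling by library size, RLE or upper quartile, no filter or 50 counts in 2 libraries, the newer quasi-likelihood form, DESeq2 1.42.0, a length offset (loess span 0.4), a replicate block, each library left out, and, added after seeing the data, pseudogene copies.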

Additional observations from a re-analysis of the deposited data

How the results depend on the processing

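Of the 42 translation factor genes, 23 kept the sign of their log2 fold change under all 10 alternatives and with each of the 4 libraries left out (18 higher and 5 lower with EGCG), among them 10 of the 11 TOP genes. The 9 that reversed under an alternative were all near 0. Scaling by library size alone, which moved the median of all genes to -0.03, gave -0.011 for Eif5, -0.0038 for Eif5b, -0.00016 for Eif2b1, -0.012 for Eif2b3, -0.035 for Eif2b5 and -0.031 for Eef1d. It moved the medians to 0.0077 for the 42 genes, -0.00016 for eIF2B, 0.014 for eIF3, -0.070 for eIF4, -0.011 for the genes without a known TOP tract and -0.011 for the other translation genes. The 50-count filter gave -0.0042 for Eif2b5 and -0.00050 for Eef1d. The length correction gave -0.027 for Eif2b5, 0.060 for Eif4g2 and 0.023 for Eif4h, with medians of 0.067 for eIF2B and 0.023 for eIF4. Upper-quartile scaling gave 0.0061 for Eif3g and 0.0071 for Eif4h, and no filter 0.0021 and 0.0028. The causes were not tested.

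Tpt1 was the 1 of the 42 called higher under library size scaling and under DESeq2. Over all genes, the number called higher was 2, and 16 with library size scaling, 0 with no filter, 1 with the 50-count filter, 6 with the newer quasi-likelihood form and 14 with DESeq2. The number called lower was 20, and 135, 0 and 9 with the first 3 of these, 9 with upper-quartile scaling, 54 with DESeq2 and 5 with the length correction.

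With a library left out, where the remaining replicate is assumed to vary like the other group, the calls over all genes ran from 5 to 119 higher and from 72 to 235 lower. Of the 42 genes, 0 to 2 were called higher, 0 to 1 lower, and 4 to 11 had an unadjusted p under 0.05 (9.52% to 26.2%, where all genes had 10.4% and 14.4% in the same fits). The calls were Tpt1 without control 2 (adjusted p 0.000721), EGCG 1 (0.0188) or EGCG 2 (0.00706), and Eif3e (0.0457) and Eif4g1 (0.0380) without control 2. Of the other translation genes 0 to 1 were called, Paip2 without control 2. Log2 fold changes ran from 0.30 to 0.53 for Tpt1, 0.25 to 0.35 for Eif3e, -0.34 to -0.13 for Eif4g1, 0.16 to 0.35 for Eif3f, 0.13 to 0.29 for Eef1b2, 0.14 to 0.33 for Eif1, 0.031 to 0.19 for Eef1a1, 0.010 to 0.16 for Eef2, 0.045 to 0.18 for Pabpc1, 0.047 to 0.16 for Eef1g, -0.20 to -0.054 for Eif4g3 and -0.21 to -0.063 for Gspt1. Medians ran from 0.025 to 0.075 for the 42 genes, 0.048 to 0.14 for eIF2B, 0.045 to 0.11 for eIF3, -0.054 to 0.0079 for eIF4, 0.036 to 0.14 for elongation, 0.028 to 0.15 for the termination group, 0.086 to 0.19 for the TOP genes, -0.0039 to 0.023 for the genes without a known TOP tract and 0.0055 to 0.043 for the other translation genes. In 19 genes the sign changed: Eif2s1 -0.15 to 0.088, Eif2s2 -0.11 to 0.019, Eif5 -0.051 to 0.11, Eif5b -0.080 to 0.14, Eif6 -0.015 to 0.17, Eif2b1 -0.0023 to 0.079, Eif2b3 -0.25 to 0.26, Eif2b5 -0.015 to 0.020, Eif3b -0.20 to 0.029, Eif3c -0.16 to 0.063, Eif3g -0.019 to 0.021, Eif3i -0.020 to 0.13, Eif3l -0.035 to 0.13, Eif4a2 -0.041 to 0.15, Eif4e -0.24 to 0.048, Eif4g2 -0.074 to 0.011, Eif4h -0.030 to 0.033, Eef1d -0.045 to 0.056 and Etf1 -0.0030 to 0.13.

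The replicate numbers of the labels are shared across groups but no source ties them to mice or days, and the deviations of same-numbered libraries correlated at 0.0268 across genes. A fit with the replicate number as a block called 6 genes higher and 24 lower, and 0 of the 42. At these depths the self-test recovered changes of 1.5-fold, the smallest it simulated, in most genes. The differences of the 42 genes were smaller, so the self-test gives no recovery rate for changes of their size.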
